A study of Rattus norvegicus with 6 samples.

Results

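The genes described here encode the sensors of cytosolic and endosomal nucleic acids and the signaling chain that runs from them through MAVS to IRF3. They were chosen by name, because PCBP proteins are known regulators of MAVS and STING, and with earlier results of these data known. By symbol, 10 of 10 were found among the 20609 genes of the count table. Of these 10 genes, 9 had enough counts for a test and Zbp1 did not. The libraries came from rat cells labelled PC12, a line derived from a pheochromocytoma of the adrenal medulla. Of the 6 libraries, 3 came from cells with a control plasmid and 3 from cells with a plasmid for EGFP-tagged PCBP-1 (PCBP1-OE), so that both groups received foreign DNA. The sources used here do not say whether the control plasmid encodes EGFP or when the cells for RNA-seq were harvested, and the study describes the overexpression both as a transfection and as stable. The level of Pcbp1 in the count table was not analysed here. The study reports higher PCBP-1 in the PCBP1-OE cells, as mRNA by RT-qPCR and as protein by western blot. The study calls its replicates biological, but the sources used here do not say whether they were separate cultures or separate transfections, and p-values measure the spread between these libraries.

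Cells detect viral or misplaced nucleic acids through receptors that differ in what they bind and where. The helicases RIG-I and MDA5 (encoded by Ddx58 and Ifih1) bind double-stranded RNA in the cytosol and assemble the mitochondrial adaptor MAVS, while STING (Tmem173) receives the cyclic dinucleotide made by cGAS on cytosolic DNA. Both adaptors recruit the kinase TBK1, which phosphorylates the transcription factor IRF3, and TLR3 reaches the same kinase from the endosome. Several of the sensor genes are themselves interferon-stimulated, whereas Mavs, Tbk1 and Irf3 are mostly constitutive. PCBP2 and PCBP1 are known to lead MAVS to degradation with the ubiquitin ligase ITCH, which acts on the protein and is not measured by RNA-seq.

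The libraries held 19730209 to 22315623 counts. Values are given as CPM, counts divided by a library size that was scaled by the TMM method, and a gene was called where edgeR's quasi-likelihood test gave a Benjamini-Hochberg adjusted p of 0.05 or less over all 12624 genes tested. Because these CPM values are not corrected for gene length, they are compared between libraries and not between genes. Most chromaffin markers were near zero in these cells: Dbh had 0 to 5 counts per library, Chga 0 to 3, Ddc 0 to 4 and Syt1 1 to 6, while Th had 141 to 185 and Scg2 2607 to 3553. Among fibroblast markers, Dcn had 0 to 5 counts, Col1a1 61 to 74 and Pdgfra 3939 to 4941. Among leukocyte markers, Ptprc had 0 to 3 counts, Csf1r 1 to 4, Itgam 4 to 6, Cd3e 52 to 79, Cd68 56 to 81 and Cd14, which made up most of the list's sum, 698 to 887. The summed CPM of the 8 leukocyte markers found was 44.6 to 51.6 in the control group, against 39.5 to 44.8 with PCBP1-OE. The 3 fibroblast markers found summed to 224 to 229 CPM in control libraries and to 199 to 211 CPM with PCBP1-OE, without overlap and nearly all from Pdgfra, and the 9 chromaffin markers found to 151 to 180 and 139 to 153 CPM. The part of these differences in the results on the sensors was not tested. PC12 is used here as the name on the label. In such bulk libraries, fewer cells of a type and less RNA per cell cannot be told apart.

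Among the sensors, Dhx58 and Eif2ak2 rose in PCBP1-OE, and the other 7 genes tested did not pass the threshold. The 2 called genes were both higher, against 9.45% of all genes tested that were called, 4.45% higher and 5.0% lower. The number called was 1 without control replicate 2, where 48 of all 12815 genes tested were called. It was 5 without control replicate 3, where 2860 of all 12815 genes tested were called. No gene of the group was called lower by edgeR, where 1 gene, Irf3, was lower at an unadjusted p under 0.05 and neither DESeq2 nor limma-voom called one lower. The groups did not overlap in 4 of the 9 genes, Ifih1, Dhx58, Eif2ak2 and Irf3, against 30.6% of all genes tested. The median log2 fold change of the 9 genes was 0.061, beside 0.0029 over all genes tested, with values from -0.22 for Irf3 to 0.92 for Dhx58. Leaving out control replicate 2 gave a median of 0.14, PCBP1-OE replicate 2 one of 0.17 and PCBP1-OE replicate 3 one of 0.12. None of the 9 reached the study's 2-fold threshold together with the adjusted p of the test used here, which 0.190% of all genes tested did. The study's own edgeR analysis reported more genes at these limits than the 24 found here.

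**Figure D1:**
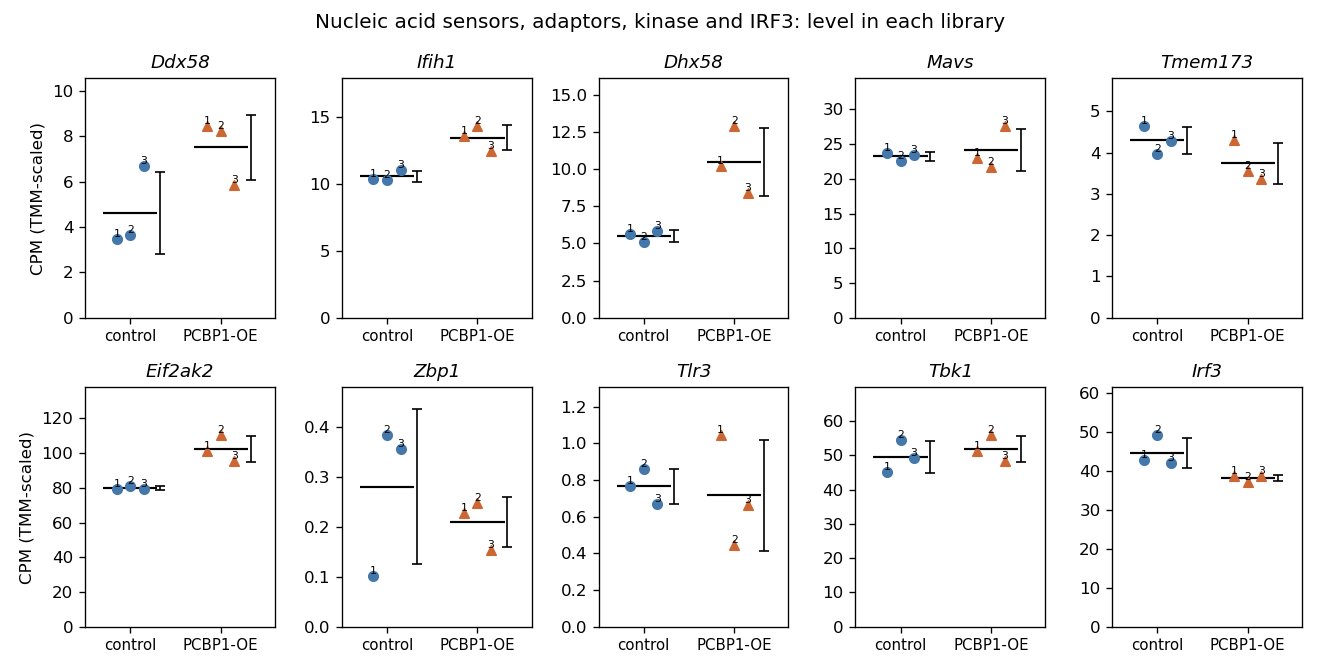
CPM (TMM-scaled, y axes from 0, a separate scale for each gene) of the 10 genes in the 3 control libraries (circles) and the 3 PCBP1-OE libraries (triangles), numbered by replicate, with the group mean (line) and SD (bar, n = 3). The groups are apart for Ifih1, Dhx58, Eif2ak2 and Irf3, and control replicate 3 lies above PCBP1-OE replicate 3 for Ddx58.

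Dhx58 (ENSRNOG00000018247, chromosome 10) encodes LGP2, the helicase of the RIG-I family that lacks signaling domains and tunes the response of RIG-I and MDA5. Its level was 5.66, 5.08 and 5.84 CPM in the control group, against 10.2, 12.9 and 8.37 CPM with PCBP1-OE. No control reached the lowest PCBP1-OE library, which was replicate 3. The means of 5.53 ± 0.399 and 10.5 ± 2.27 CPM (SD, n = 3 each) gave a log2 difference of 0.92 (standard error, SE, 0.16, adjusted p = 0.00870, edgeR's quasi-likelihood test), or 1.90-fold with a 95% interval of 1.50 to 2.40. The adjusted p was 0.0692 without control replicate 2, in a range of 5.3e-08 to 0.0891 over 13 alternatives, of which 11 kept the call.

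Eif2ak2 (ENSRNOG00000048315, chromosome 6) encodes PKR, the kinase that binds double-stranded RNA and halts translation by phosphorylating the initiation factor eIF2. It was at 79.2, 81.1 and 79.3 CPM in the control group, against 101, 110 and 95.5 CPM with PCBP1-OE. The controls lay within 2 CPM of each other, and all PCBP1-OE libraries were above them. With means of 79.9 ± 1.08 and 102 ± 7.48 CPM (SD, n = 3 each), the log2 difference was 0.36 (SE 0.054, adjusted p = 0.00485, edgeR), or 1.28-fold with an interval of 1.18 to 1.39. The call held with each library left out in turn, with adjusted p from 7.3e-04 to 0.0477. Over all 13 alternatives it lay between 1.3e-07 and 0.0711, and 12 kept the call.

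Ddx58 and Ifih1, the receptors that signal to MAVS, had higher means in PCBP1-OE and did not pass the threshold. Ifih1 (ENSRNOG00000006227, chromosome 3) was at 10.4, 10.3 and 11.1 CPM in the control group, against 13.6, 14.3 and 12.5 CPM with PCBP1-OE. The groups were apart, with PCBP1-OE replicate 3 the closest to the controls. The log2 difference was 0.35 (SE 0.10, adjusted p = 0.0530, edgeR), with a 95% interval from 1.09-fold to 1.48-fold, and 4 of 13 alternatives brought the adjusted p to 0.05 or less, in a range of 0.0289 to 0.181.

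Ddx58 (ENSRNOG00000006384, chromosome 5) was at 3.47, 3.64 and 6.69 CPM in the control group, against 8.44, 8.23 and 5.87 CPM with PCBP1-OE. Control replicate 3, with 150 counts, was above PCBP1-OE replicate 3, with 115, while the other controls had 68 and 76. The groups therefore overlapped through these libraries, the spread among controls was 1.81 CPM around a mean of 4.60, and the log2 difference of 0.70 (SE 0.23) had an adjusted p of 0.0714 in edgeR. Without control replicate 3 the log2 fold change was 1.08 and the adjusted p 0.0010, in a range of 5.6e-04 to 0.263 over 13 alternatives, of which 3 passed. Control replicate 3 was also the highest control for Ifih1 and Dhx58, but lay below every PCBP1-OE library there.

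**Figure D2:**
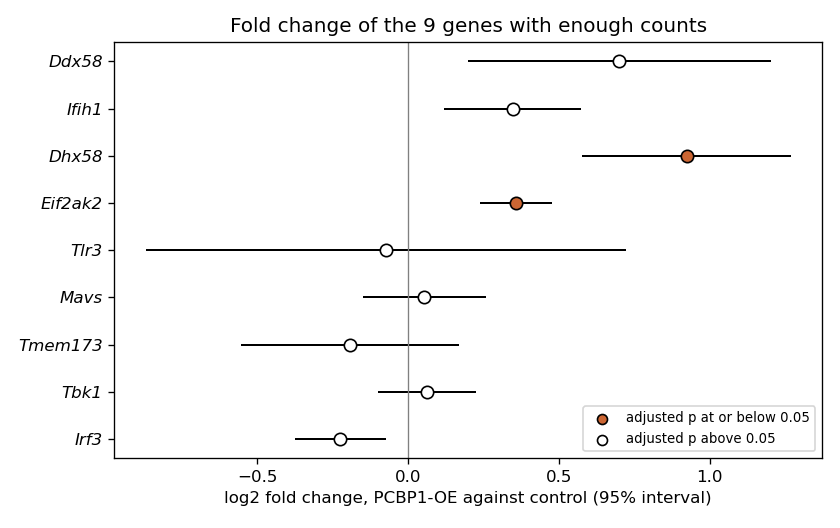
Log2 fold change of PCBP1-OE against control (x axis) with its 95% interval for the 9 genes tested, filled where the adjusted p was 0.05 or less. Dhx58 and Eif2ak2 are filled, the intervals of Ddx58, Ifih1 and Irf3 do not reach 0, and those of Tlr3, Mavs, Tmem173 and Tbk1 span it.

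The promoters of the sensors were read to see which carry the element by which interferon-activated factors bind DNA. Promoter sequences of 7 of the 10 genes were in the RefSeq table used here (assembly GRCr8, 250 bases before to 50 after the start); Ddx58, Dhx58 and Zbp1 were not. The core of the interferon-stimulated response element (ISRE) was searched as GAAANNGAAA on both strands, and 1 match each was found in Ifih1, 59 bases before the start, and in Eif2ak2, 16 bases before it. The 120 bases before the start are shown for these genes and, for contrast, for Mavs and Irf3, which had no match, with the match in capitals.
Ifih1 (GRCr8, chr3:67683969-67684088, minus strand): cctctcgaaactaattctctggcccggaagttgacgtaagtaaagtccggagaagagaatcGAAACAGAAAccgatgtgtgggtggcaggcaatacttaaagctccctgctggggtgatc
Eif2ak2 (GRCr8, chr6:21941034-21941153, plus strand): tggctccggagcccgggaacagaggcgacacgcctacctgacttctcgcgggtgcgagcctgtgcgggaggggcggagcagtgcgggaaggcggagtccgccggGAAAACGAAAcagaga
Mavs (GRCr8, chr3:138904692-138904811, plus strand): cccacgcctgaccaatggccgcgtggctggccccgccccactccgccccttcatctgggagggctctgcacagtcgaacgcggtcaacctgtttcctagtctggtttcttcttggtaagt
Irf3 (GRCr8, chr1:104616488-104616607, plus strand): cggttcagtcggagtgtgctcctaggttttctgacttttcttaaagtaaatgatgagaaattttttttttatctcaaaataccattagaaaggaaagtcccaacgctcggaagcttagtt

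Tmem173, Tbk1 and Tlr3 also had no match to this motif, and no match says only that these letters are not in this window. The motif was present in 3.92% of all 33469 promoters in the table and in 2.96% of the 9414 promoters matched to a gene tested. Of 431 promoters of genes called higher, 28 held it (6.5%), and of 490 promoters of genes called lower, 11 (2.24%), given as a description without a test. A second motif, GAS, was searched as TTCNNNGAA in the same promoters. It stood in 6.73% of promoters of genes called higher, 6.12% of those called lower and 6.68% of those tested. None of the 7 promoters of the sensor group held GAS. Promoters were also read for 20 genes of the lists of kinases, adaptors and transcription factors and of IRF3 targets. The ISRE motif stood before the start in 5 of them, Ifit3, Rsad2, Irf7, Cxcl10 and Optn, and in 15 it did not, among them the called genes Irf9, Chuk and Ep300. Promoters of Ifit1, Ifit2, Isg15 and Ccl5 were among those not found. Matches after the start were not counted for these genes, whereas the percentages above include them. Matches on the opposite strand are shown for Ifit3, Rsad2 and Irf7, chosen because these genes are known to be induced through IRF3 or interferon.
Ifit3 (GRCr8, chr1:241527272-241527301, plus strand): tttaagtctgTTTCAGTTTCtagtttccac
Rsad2 (GRCr8, chr6:48788248-48788277, minus strand): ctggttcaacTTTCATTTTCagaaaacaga
Irf7 (GRCr8, chr1:205800073-205800102, minus strand): acagtttaggTTTCATTTTCccgagacgca

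Mavs (ENSRNOG00000025295, chromosome 3), the adaptor on the outer mitochondrial membrane, was at 23.7, 22.5 and 23.5 CPM in the control group, against 23.1, 21.8 and 27.6 CPM with PCBP1-OE. The groups overlapped, and PCBP1-OE replicate 3 was the highest of the 6 libraries while replicate 2 was the lowest. Its log2 difference of 0.054 (SE 0.093, adjusted p = 0.747, edgeR) had a 95% interval from 0.904-fold to 1.19-fold. The SD was 0.620 CPM among controls and 3.05 CPM among PCBP1-OE libraries, and leaving out 1 library gave log2 differences from -0.044 to 0.12. Changes of Mavs mRNA within the interval were not resolved, and the MAVS protein was not measured.

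Counts of the sensors were also expressed per 100 counts of Mavs in the same library, a measure that needs no scaling between libraries and was chosen after the values were seen. Dhx58 was at 23.9, 22.6 and 24.9 per 100 Mavs counts in the control group, against 44.3, 59.2 and 30.4 with PCBP1-OE, with no overlap (p = 0.1 in a two-sided exact permutation test, the least that 3 against 3 allow). For Eif2ak2 the ratio was 334 to 360 in the control group, against 440, 507 and 346 with PCBP1-OE, so that PCBP1-OE replicate 3, the library with the highest Mavs value, fell among the controls (exact permutation test, p = 0.2). Ifih1, whose groups were apart in CPM, overlapped on this measure, at 44.0 to 47.1 in control libraries and 59.1, 65.8 and 45.2 with PCBP1-OE (exact permutation test, p = 0.3). Irf3 was at 181, 219 and 179 in the control group, against 168, 171 and 141 with PCBP1-OE, again with no overlap (p = 0.1 in the same exact permutation test). The groups also overlapped for Ddx58, Tmem173, Tbk1 and Tlr3. These p-values are not adjusted, and 8 such ratios were computed.

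Tmem173 (ENSRNOG00000042137, chromosome 18), which encodes STING, was at 4.64, 3.98 and 4.28 CPM in the control group, against 4.31, 3.57 and 3.37 CPM with PCBP1-OE. PCBP1-OE replicates 2 and 3 lay below all controls and replicate 1 among them. The log2 difference was -0.19 (SE 0.17, adjusted p = 0.479, edgeR), with a 95% interval from 0.683-fold to 1.12-fold, from 66 to 96 counts per library.

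Irf3 (ENSRNOG00000043388, chromosome 1), the factor that TBK1 activates, was the one gene of the group whose PCBP1-OE libraries all lay below the controls. It was at 42.8, 49.2 and 42.1 CPM in the control group, against 38.6, 37.2 and 38.9 CPM with PCBP1-OE. The highest control was replicate 2, and the PCBP1-OE libraries were within 2 CPM of each other. The log2 difference of -0.22 (SE 0.068, adjusted p = 0.0552, edgeR) did not pass the threshold, with a 95% interval from 0.773-fold to 0.948-fold. Without control replicate 2 it was -0.14 and without control replicate 3 -0.27, where the adjusted p was 0.0118, in a range of 0.0096 to 0.228 over 13 alternatives, of which 2 passed.

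Tbk1 (ENSRNOG00000005528, chromosome 7), the kinase shared by MAVS, STING and TLR3, was at 45.2, 54.5 and 49.2 CPM in the control group, against 51.3, 55.9 and 48.2 CPM with PCBP1-OE. The groups overlapped, with a log2 difference of 0.061 (SE 0.074, adjusted p = 0.626, edgeR) and a 95% interval from 0.935-fold to 1.16-fold. Leaving out 1 library gave values from 0.0047, without PCBP1-OE replicate 2, to 0.14, without control replicate 2, and none passed.

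Tlr3 and Zbp1 had few counts. Tlr3 (ENSRNOG00000021726, chromosome 16), the endosomal receptor for double-stranded RNA, had 15, 18 and 15 counts in the control group, against 23, 9 and 13 with PCBP1-OE. Its log2 difference of -0.075 (SE 0.37, adjusted p = 0.918, edgeR) had a 95% interval from 0.548-fold to 1.64-fold, so that a change within those bounds was not detectable at this depth. Zbp1 (ENSRNOG00000006314, chromosome 3), a sensor of Z-form nucleic acids that starts necroptosis through RIPK3, had 2, 8 and 8 counts in the control group, against 5, 5 and 3 with PCBP1-OE. The groups overlapped (two-sided exact permutation test of CPM, p = 0.5), and in the fit without a filter the log2 fold change was -0.43 with a standard error of 0.68.

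Across the 6 libraries, Dhx58, Ifih1 and Eif2ak2 varied together and Mavs did not follow them. Pearson's r on log2 CPM was 0.99 between Dhx58 and Ifih1, 0.98 between Dhx58 and Eif2ak2, 0.82 between Dhx58 and Ddx58 and -0.11 between Dhx58 and Mavs. Irf3 ran opposite to Dhx58, with r = -0.88. These values describe 6 libraries in 2 groups, contain the difference between groups and carry no test.

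**Figure D3:**
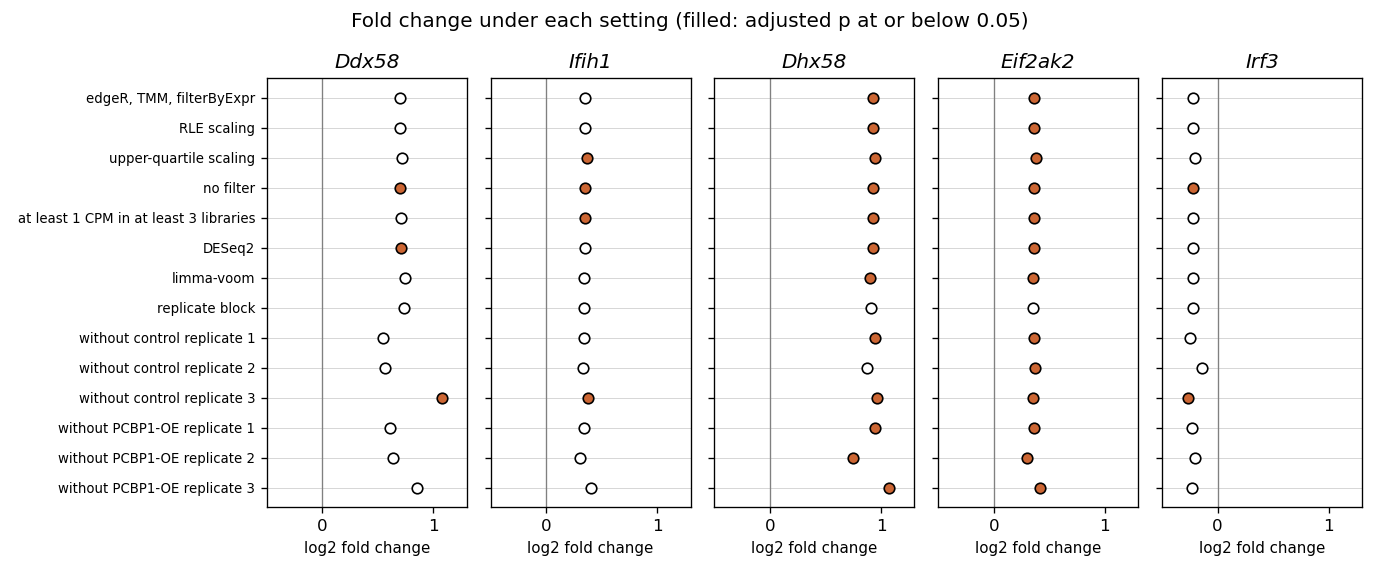
Log2 fold change (x axes) of the 5 genes with the lowest p among the 9 under the main setting (top row) and 13 alternatives, filled where the adjusted p was 0.05 or less. The direction was the same in every row for these genes, Eif2ak2 was filled in all rows but the replicate block, Dhx58 in all but the block and the fit without control replicate 2, and Ddx58, Ifih1 and Irf3 in a few.

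The rest of the pathway was taken from lists of its regulators and targets, in which 101 genes had enough counts. Of these, 19 rose and 2 fell, or 21 of 101, against 9.45% of all genes tested that were called (4.45% higher and 5.0% lower). Of the 19, 6 were IRF3 target genes, a list already known to be higher in these libraries. All lists were chosen with earlier results of these data known, so these counts are not independent evidence. The median log2 fold change of the 101 genes was 0.059, beside 0.0029 over all genes tested. The number called was 4 without control replicate 2, where 48 of all 12815 genes tested were called. It was 37 without control replicate 3, where 2860 of all 12815 were called. Without any one of the other 4 libraries it was 7 to 12, where 136 to 697 of all genes tested were called.

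Among 14 tested activators and partners of RIG-I and MAVS, 3 rose (4.45% of all genes tested did), 11 did not pass and the median log2 fold change was 0.17. Traf3, the ubiquitin ligase that links MAVS to TBK1, was at 14.0, 15.3 and 19.9 CPM in the control group, against 23.3, 22.7 and 20.4 CPM with PCBP1-OE. The groups did not overlap, though control replicate 3 lay close to PCBP1-OE replicate 3, and the log2 difference was 0.43 (SE 0.12, adjusted p = 0.0419, edgeR). Mex3c, an RNA-binding ubiquitin ligase that acts on RIG-I, rose by 0.24 and Riok3, a kinase of the same circuit, by 0.18 on the log2 scale. Leaving out any 1 library other than control replicate 3 ended the calls of Traf3, Mex3c and Riok3.

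Of 14 tested brakes on RIG-I and MAVS, 3 rose, 1 fell and 10 did not pass, against 9.45% of all genes tested that were called. Itch, the ubiquitin ligase that acts on MAVS, was at 7.70, 7.71 and 10.4 CPM in the control group, against 15.5, 12.8 and 11.2 CPM with PCBP1-OE. Its groups did not overlap, and the log2 difference was 0.61 (SE 0.15, adjusted p = 0.0280, edgeR). The call was lost without control replicates 1 or 2 or PCBP1-OE replicates 1 or 2, and over 13 alternatives the adjusted p lay between 1.0e-04 and 0.146. Pcbp2, which bridges ITCH and MAVS, was at 416 to 443 CPM in the control group, against 425 to 445 CPM with PCBP1-OE, with a log2 difference of 0.027 (SE 0.044, adjusted p = 0.730). Ndfip1, an activator of ITCH, had a log2 difference of -0.023 (SE 0.059, adjusted p = 0.838). The ubiquitin ligases March5 and Smurf2 rose by 0.19 and 0.17 on the log2 scale, and Rnf5, a ligase that acts on STING and MAVS, fell by 0.35 (SE 0.074, adjusted p = 0.0179, edgeR), from 37.6 to 43.6 CPM in controls to 29.2 to 32.5 CPM in PCBP1-OE. The calls of March5 and Rnf5 were lost without control replicates 1 or 2 or PCBP1-OE replicates 1 or 2, and that of Smurf2 without any 1 library but control replicate 3.

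Of 19 tested genes of cytosolic DNA sensing, 2 rose, 1 fell and 16 did not pass, against 9.45% of all genes tested that were called. The median log2 fold change was -0.091, with 7 positive and 12 negative values. The groups did not overlap in 11 genes, 3 higher and 8 lower, against 30.6% of all genes tested. The called genes were the helicases Dhx9 (log2 fold change 0.26), Dhx36 (0.19) and Ddx41 (-0.16), which bind other nucleic acids as well. Ddx41, at an adjusted p of 0.0496, passed in 1 of 13 alternatives, the fit without control replicate 3, Dhx9 lost the call without control replicates 1 or 2 or PCBP1-OE replicates 1 or 2, and Dhx36 without any 1 library but control replicate 3. Mb21d1, which encodes cGAS, had 64, 54 and 50 counts in the control group, against 77, 71 and 43 with PCBP1-OE, which overlapped.

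Downstream of the adaptors, 18 kinases, adaptors and transcription factors were tested, of which 3 rose, against 4.45% of all genes tested, and 15 did not pass. Irf9, the DNA-binding subunit of the interferon-activated complex ISGF3, was at 23.0, 23.0 and 25.2 CPM in the control group, against 29.3 to 38.8 CPM with PCBP1-OE. Its log2 difference was 0.53 (SE 0.095, adjusted p = 0.0098, edgeR), and the call was lost without control replicate 2 or PCBP1-OE replicate 2, in a range up to 0.0858. Irf7, the interferon-inducible relative of Irf3 whose promoter match is shown above, had 54, 49 and 74 counts in the control group, against 78, 126 and 82 with PCBP1-OE, with a log2 difference of 0.73 (SE 0.23) that did not pass (adjusted p = 0.0593, edgeR). The difference was 0.46 without PCBP1-OE replicate 2, and 3 of 13 alternatives passed, with adjusted p between 0.0045 and 0.248. Ikbke, the kinase closest to TBK1, was lower in all PCBP1-OE libraries, at 8.30 to 9.42 CPM against 10.1 to 11.7 CPM in controls, and did not pass (log2 difference -0.35, SE 0.12, adjusted p = 0.0700). Chuk, a kinase of the NF-kB branch, rose by 0.27 on the log2 scale, a call lost without control replicates 1 or 2 or PCBP1-OE replicates 1 or 3. The IRF3 coactivator gene Ep300 rose by 1.16 (SE 0.28, adjusted p = 0.0281) with overlapping groups, a call lost without control replicate 2 and without either of PCBP1-OE replicates 2 and 3, and its relative Crebbp had a log2 difference of 0.17 (SE 0.074, adjusted p = 0.150).

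Around PKR, 12 genes were tested, of which 2 rose, against 4.45% of all genes tested, and 10 did not pass. Adar, which edits double-stranded RNA and limits its sensing by MDA5, PKR and ZBP1, was at 11.9, 10.4 and 10.9 CPM in the control group, against 15.7, 16.7 and 14.6 CPM with PCBP1-OE. Its groups did not overlap and its log2 difference was 0.50 (SE 0.10, adjusted p = 0.0142, edgeR), a call lost without control replicate 2 and without either of PCBP1-OE replicates 1 and 2. Ppp1r15a, a phosphatase subunit that reverses the action of PKR on eIF2, rose by 0.28 (SE 0.047, adjusted p = 0.00835), a call lost without control replicate 2. The other eIF2 kinases, Eif2ak1, Eif2ak3 and Eif2ak4, had log2 fold changes of 0.19, 0.034 and 0.066 and did not pass, with adjusted p of 0.0877, 0.803 and 0.549 in edgeR; the difference between Eif2ak2 and these genes was not tested. Of 7 partners of ZBP1 and cell death genes, none was called by edgeR, DESeq2 or limma-voom, and 1 had an unadjusted p under 0.05, Ripk3, with a log2 fold change of -0.16.

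The interferon genes found in the count table were near zero. Of the 10 on the list 5 were found, and Ifna1, Ifna2, Ifna4, Ifna11 and Ifnl3 were not. Ifnb1 had 0, 0 and 1 counts in the control group, against 5, 1 and 1 with PCBP1-OE, too few for a test, and of the 5 interferon genes found Ifne was the one tested, with 12 to 17 counts per library and a log2 fold change of 0.18 (adjusted p = 0.750, edgeR's quasi-likelihood test). Among genes known to be switched on by IRF3 and interferon, 6 of 6 tested were called higher, against 4.45% of all genes tested, with a median log2 fold change of 0.86. Their groups did not overlap, as in 30.6% of all genes tested. The other gene of the list, Ifit1, had 0 to 4 counts per library and was not tested. They belong to the interferon response already known to be higher in these libraries, so that their direction is not independent evidence. Rsad2 was at 12.5 to 12.6 CPM in the control group, against 20.9 to 25.1 CPM with PCBP1-OE, and Ifit3 at 5.66 to 7.05 and 12.1 to 15.8 CPM. Cxcl10, Isg15 and Ccl5, which encode a chemokine, a ubiquitin-like modifier and another chemokine, rose by 0.48, 0.94 and 0.84 on the log2 scale. Rsad2, Ifit3 and Cxcl10 passed in all 13 alternatives, while Isg15 lost the call without control replicate 2 and Ccl5 without any 1 library but control replicate 3.

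**Figure D4:**
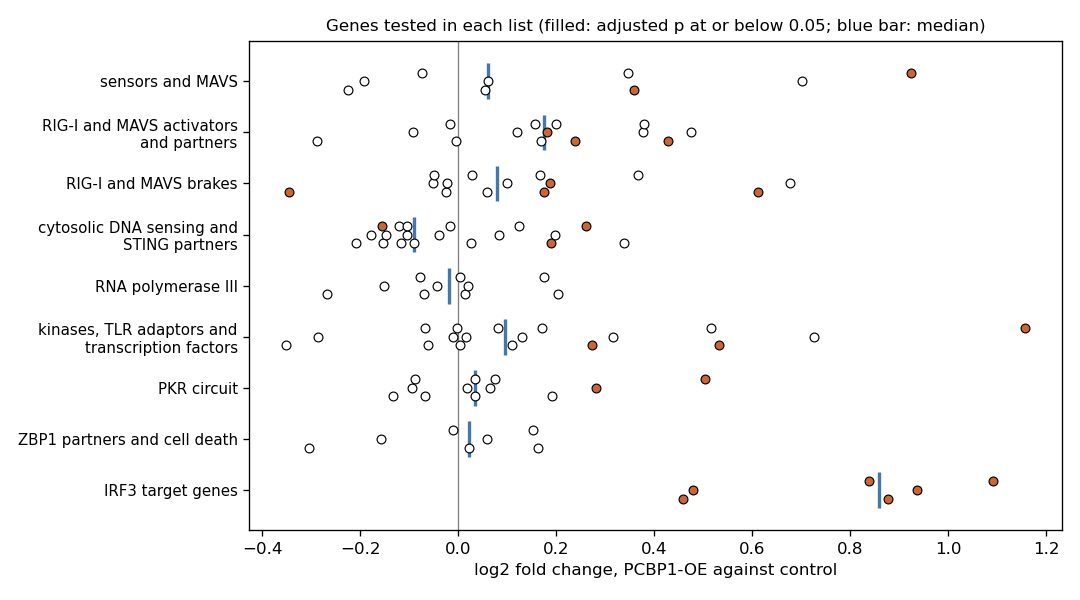
Log2 fold change (x axis) of each gene tested in the sensor group and in 8 lists of pathway genes, without the interferon genes, filled where the adjusted p was 0.05 or less, with the median of each list as a blue bar. The 6 IRF3 target genes are filled and lie at 0.46 or above, whereas the sensors range from -0.22 to 0.92 and the other medians from -0.091 to 0.17.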

How the data were processed

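RNA-seq libraries of 3 control and 3 PCBP1-OE samples were compared. The authors deposited raw counts per gene, which according to the methods count uniquely mapped reads, trimmed with FASTX-Toolkit and aligned to the Ensembl rat genome Rnor_6.0 with TopHat2; the submitters' processing notes name GRCh38 as the build, while the gene identifiers are those of rat. Labels and methods name different stranded poly-A kits, and the annotation release and the strand setting of the counting are not stated in the sources read, which leaves overlapping genes uncertain. Ddx58, Ifih1 and Dhx58 are related helicases, and reads shared between them were not separately assessed.

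The members, the lists and the rule for named genes (all members, up to 5 called genes of each list, and a set of known regulators) were chosen with earlier results of these data known; Mb21d1, Ripk3, Ifne, Optn and Ifit1 were named after their values were seen. Genes passing filterByExpr (minimum count 10, minimum total count 15) were tested with edgeR 4.0.16 in R 4.3.3, using TMM scaling, the quasi-likelihood test and Benjamini-Hochberg adjustment over 12624 genes; 7985 were left out. Standard errors are the log2 fold change divided by the root of F. Log2 CPM for correlations used a pseudocount of 0.5. The alternatives changed the scaling (RLE, upper quartile), the filter (none, or 1 CPM in 3 libraries), the tool (DESeq2 1.42.0, limma-voom with limma 3.58.1), blocked on replicate number, or dropped 1 library in turn. The fit was tested on simulated data, where 100% of the genes changed 2-fold were recovered among 12633 tested. The simulation gave every gene the same dispersion and changed only genes above a minimum mean count. It therefore does not tell how many such changes would be recovered in these libraries, or for genes with few counts, such as Tlr3. Promoters came from RefSeq (GRCr8), matched by symbol or synonym; no coordinates of another assembly were used.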

Additional observations from a re-analysis of the deposited data

How the results depend on the processing

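Over 13 alternatives, the genes of the sensor group kept their direction except Mavs and Tlr3. Outside the group, Ndfip1 from the list of brakes changed sign as well. Mavs was at -0.044 on the log2 scale without PCBP1-OE replicate 3, Tlr3 at 0.026 without control replicate 2 and 0.17 without PCBP1-OE replicate 2, and Ndfip1 at 0.033 and 0.037 without the same 2 libraries; leaving out 1 library gave -0.044 to 0.12 for Mavs, -0.46 to 0.17 for Tlr3, -0.061 to 0.037 for Ndfip1, 0.0047 to 0.14 for Tbk1 and -0.31 to -0.12 for Tmem173. Without a filter, 2090 genes and 5 of the sensor group passed, the added ones being Ddx58, Ifih1 and Irf3. With a minimum of 1 CPM the median of the group was 0.21, since Tlr3 was then not tested. Upper-quartile scaling called 655 genes higher and 427 lower, against 562 and 631. Leaving out 1 library gave 48 to 2860 genes, 1 to 5 of the sensor group, 4 to 37 pathway genes and a median of 0.062 to 0.17 for the group; the lowest counts came without control replicate 2 and the highest without control replicate 3.

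Blocking on replicate number, 16 genes, 3 pathway genes and 0 of the sensor group passed in edgeR, where 5 of the group had an unadjusted p under 0.05 and the lowest adjusted p was 0.0711, for Eif2ak2. How many of all genes had such an unadjusted p in this fit was not counted. The labels give replicate numbers but do not say whether libraries of the same number were paired. Deviations from the group means correlated at -0.091 to -0.067 between libraries of the same number and at 0.019 to 0.067 between others. Deviations centred within such small groups constrain each other, so these values cannot show whether libraries shared a culture or transfection round. With 9 to 23 counts per library for Tlr3 and 2 to 8 for Zbp1, depth limits what can be said of both.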

Other observations

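The subunits of RNA polymerase III, which can turn cytosolic DNA into RNA that RIG-I binds, had a median log2 fold change of -0.019 over 10 genes tested. None was called by edgeR, DESeq2 or limma-voom, and 2 had an unadjusted p under 0.05.

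The mean z-score of the 9 sensor genes tested was -0.40, -0.15 and -0.19 in the control libraries, against 0.53, 0.20 and 0.00029 with PCBP1-OE. The 5 genes outside the group whose log2 CPM followed it most closely over the 6 libraries were Zkscan5 (r = 0.992), Rb1cc1 (0.991), Hyal3 (0.987), Oat (0.984) and Eif4g2 (0.983), out of 12615 compared, of which 222 had an r of 0.9 or more. With 6 libraries and that many genes these are a description only, and of the 5 genes Rb1cc1 alone was called (log2 fold change 0.26, adjusted p = 0.0494, edgeR's quasi-likelihood test).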
